A study of Mus musculus with 9 samples.

Results

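The response common to FoxF1- and NFI-C2-transfected HC11 cells is described here, that is, the genes whose expression was shifted from wild type in the same direction in both transfected lines. A gene was taken as a member when all 6 transfected arrays lay above, or all 6 lay below, the 3 wild type arrays, with 1 array cluster per gene. Of 18497 genes tested, 2278 met this rule (12.3%), 902 of them higher in both lines (4.88%) and 1376 lower in both lines (7.44%). The members were chosen by these values, so their differences from wild type are given as a description, without a test.

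HC11 is a mouse mammary epithelial cell line that was cloned from COMMA-1D cells and goes back to BALB/c mice. Total RNA was measured on Affymetrix Mouse Gene ST arrays for 3 preparations each of FoxF1-transfected cells, NFI-C2-transfected cells and wild type cells, all kept in RPMI medium with serum, insulin and EGF. The labels state that the replicates were grown and harvested independently, and the methods speak of pools of cells. The labels give the cells used for comparison as wild type, as do the results and table notes of the study, whereas its methods describe them as carrying the empty vector. For NFI-C2 the methods name a stable form, NFI-C2S. Whether the pools of a line came from separate transfections is not stated, so all errors and p-values measure the spread between preparations of the same cells. Where the comparison cells were untransfected, as their label has it, a shift shared because of the transcription factors and one shared because of transfection and selection cannot be told apart.

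Mammary ducts and alveoli are lined by an inner layer of luminal cells, which carry simple-epithelial keratins and tight junctions and make milk, and an outer layer of basal cells, which carry stratified-type keratins and contractile proteins. HC11 cells hold features of both layers and can be induced to make milk protein. FoxF1 is a forkhead transcription factor of mesenchymal tissues, and NFI-C2 is a member of the nuclear factor I family, which binds palindromic TTGGC sites and is active in the mammary gland. The study set the factors side by side as regulators of the balance between epithelial and mesenchymal character, and the comparison here asks which genes differ from wild type in the same direction in both lines.

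Values are log2 expression, centred by cluster on the median of the 9 arrays, so a value is a distance from that median and levels of different genes cannot be compared. For the same reason the epithelial identity of the lines could be checked only through differences between groups. The gene of its own construct did not pass the test against wild type in either line. Foxf1, on chromosome 8, had values of 0.32, 0.12 and 0.09 in FoxF1 cells and -1.42, -0.91 and -1.46 in NFI-C2 cells, against 0.01, 0.00 and -0.07 in wild type cells, with the NFI-C2 arrays apart from the rest. Nfic had -0.11, -0.13 and -0.22 in FoxF1 cells and 0.19, 0.00 and 0.00 in NFI-C2 cells, against 0.21, 0.11 and 0.00 in wild type cells, and the NFI-C2 and wild type arrays overlapped. By limma, with Benjamini-Hochberg adjustment over all genes, Foxf1 differed from wild type by 0.20 with FoxF1 (adjusted p = 0.36) and by -1.24 with NFI-C2 (adjusted p = 0.00082). Nfic differed by -0.26 with FoxF1 (adjusted p = 0.024) and by -0.04 with NFI-C2 (adjusted p = 0.77). Neither gene is a member, and whether the probes detect the transfected constructs is not stated, so an increase from the construct could not be checked by them. The standard deviation over all clusters was 0.528 to 0.539 on FoxF1 arrays and 0.211 to 0.243 on NFI-C2 arrays, against 0.174 to 0.183 on wild type arrays, so the FoxF1 line lay farther from wild type in general.

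Against this background the shared shifts leaned downward. Both differences exceeded 1.5-fold, the criterion of the study, in 71 genes higher in both lines (0.384% of all genes) and in 262 genes lower in both lines (1.42%). The imbalance was smaller when the arrays were brought to equal spread, with 446 genes higher and 470 lower after quantile normalization and 355 higher and 697 lower after scaling. Equal spread moves the wild type arrays, which had the smallest spread, farther from the centre. Differences are then no longer on the deposited log2 scale, so these counts do not test the imbalance. At 2-fold in both lines, 15 genes were higher and 103 lower. Over all members the median difference from wild type was 0.43 with FoxF1 and 0.25 with NFI-C2 among those higher, and -0.52 and -0.33 among those lower. Over all genes the medians were 0.007 and 0.001. In a limma fit of the average of the 2 lines against wild type, 2437 genes were called higher (13.2%) and 2811 lower (15.2%), together 28.4%, a set that also takes in genes shifted strongly in a single line. With the 6 transfected arrays as 1 group 231 were called higher and 478 lower, and in a test against 1.5-fold 199 and 552. Without wild type replicate 1 the rule, then over fewer arrays, was met by 1373 genes on the higher side in place of 902. Without wild type replicate 3 it was met by 1787 on the lower side in place of 1376.

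The members at the edge of the rule were separated from wild type by almost nothing. Pik3r2 and Ccpg1, just inside it, had a gap of 6.8e-05 and 9.3e-05 between the nearest transfected and wild type arrays, and Zkscan2 and Zkscan4, just outside it, had a gap of 0. Arrays tied at the lowest value of a cluster entered 14 of the members higher and 34 of those lower. In 9 of those lower all 6 transfected arrays were tied at the lowest value, and the largest difference among these was -0.43 (the smaller of the 2 in Itprid1).

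The genes lowest in both lines were led by a lysosomal protease, a pair of simple-epithelial keratins and the milk protein lactoferrin. Ctsz, a lysosomal carboxypeptidase on chromosome 2 from 174252995 to 174264503 (NCBIM37), had -0.02, -0.15 and 0.00 on the FoxF1 arrays and 0.01, -0.27 and -0.26 on the NFI-C2 arrays, against 3.90, 4.09 and 4.14 on the wild type arrays. The transfected arrays of both lines occupied a single narrow range, far below wild type, with differences of -4.10 with FoxF1 and -4.21 with NFI-C2 (standard error 0.094 for either). Rassf4, a RAS-association domain protein, had -1.42, -1.38 and -1.21 on the FoxF1 arrays and 0.00, -0.02 and 0.00 on the NFI-C2 arrays, against 3.83, 3.85 and 3.68 on the wild type arrays. Here the FoxF1 arrays lay below the NFI-C2 arrays, which in turn lay below wild type.

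Krt7 and Krt18, keratins of simple epithelium and of luminal cells, lie on chromosome 15. Krt7 had -2.45, -1.95 and -1.97 on the FoxF1 arrays and 0.00, 0.00 and 0.00 on the NFI-C2 arrays, against 3.32, 3.35 and 3.31 on the wild type arrays, with differences of -5.45 with FoxF1 and -3.33 with NFI-C2 (standard error 0.123). Krt18 had -1.21, -1.09 and -1.25 on the FoxF1 arrays and 0.00, -0.03 and 0.00 on the NFI-C2 arrays, against 3.19, 3.26 and 3.15 on the wild type arrays, with differences of -4.38 with FoxF1 and -3.21 with NFI-C2 (0.045). In both keratins the arrays of the 3 groups formed separate steps, FoxF1 lowest. Ltf, the iron-binding milk protein lactoferrin, had -1.94, -1.60 and -1.62 on the FoxF1 arrays and 0.01, -0.15 and 0.00 on the NFI-C2 arrays, against 3.11, 3.19 and 3.30 on the wild type arrays, in the same order.

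Of the other leading genes lower in both lines, several encode secreted or surface signals. Fgf7, a growth factor for epithelial cells, had 0.02, 0.00 and -0.02 on the FoxF1 arrays and -0.57, -0.37 and -0.58 on the NFI-C2 arrays, against 2.61, 2.36 and 2.23 on the wild type arrays. Its NFI-C2 arrays were below its FoxF1 arrays. Il6, an inflammatory cytokine, had -0.59, -0.59 and -0.37 on the FoxF1 arrays and 0.05, 0.00 and 0.00 on the NFI-C2 arrays, against 2.65, 2.55 and 2.54 on the wild type arrays, and 2 FoxF1 arrays were tied at the lowest value. Igfbp5, a binding protein of insulin-like growth factors, had the widest span of the 15 leading genes, at -3.44, -4.27 and -4.21 on the FoxF1 arrays and 0.03, -0.02 and 0.00 on the NFI-C2 arrays, against 2.74, 2.59 and 2.72 on the wild type arrays, and differences of -6.65 with FoxF1 and -2.68 with NFI-C2. Sema3d, a secreted guidance protein (-3.50 and -3.14 with FoxF1 and NFI-C2), Trpv6, an epithelial calcium channel (-3.76 and -2.93), Il17b, a cytokine with 2 arrays at the lowest value (-2.85 and -2.76), Hey1, a transcriptional repressor downstream of Notch (-4.26 and -2.72), Rorb, an orphan nuclear receptor with 2 arrays at the lowest value (-2.44 and -2.66), Cnmd, chondromodulin (-3.44 and -2.43), and Clec12a, a C-type lectin receptor known from myeloid cells (-2.36 and -2.35), completed the 15, ranked by the smaller of their 2 differences.

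The genes highest in both lines were led by P2ry10b, a G protein-coupled receptor on chromosome X from 104344954 to 104368057 (NCBIM37). It had 0.04, 0.00 and -0.23 on the FoxF1 arrays and 0.12, 0.33 and 0.19 on the NFI-C2 arrays, against -2.99, -2.86 and -3.09 on the wild type arrays, and its transfected arrays stood far above wild type, with differences of 2.92 with FoxF1 and 3.19 with NFI-C2 (standard error 0.092). Vegfd, a growth factor of lymphatic vessels, had 0.91, 0.77 and 0.61 on the FoxF1 arrays and 0.18, -0.01 and 0.00 on the NFI-C2 arrays, against -1.90, -1.77 and -1.85 on the wild type arrays. Both genes lie on the X chromosome. Mt2, a metallothionein that binds zinc and copper, had 0.17, -0.02 and 0.00 on the FoxF1 arrays and 1.03, 1.01 and 1.04 on the NFI-C2 arrays, against -1.37, -1.51 and -1.82 on the wild type arrays, and here the NFI-C2 arrays were highest.

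Ccdc80, a secreted matrix protein, had 2.61, 2.29 and 2.06 on the FoxF1 arrays and 0.03, 0.00 and -0.11 on the NFI-C2 arrays, against -2.06, -1.89 and -1.80 on the wild type arrays, the widest span of the 15 leading genes higher in both lines. The FoxF1 arrays lay above the NFI-C2 arrays, as they did for Sgcd, a sarcoglycan of the dystrophin complex (3.27 and 1.59), and C1s1, a complement protease (3.32 and 1.26). The other leading genes were Adh7, an alcohol dehydrogenase that also oxidizes retinol (1.86 and 1.37), Slc1a3, a glutamate transporter (1.68 and 1.36), Serpinb1a, an inhibitor of neutrophil proteases (1.32 and 2.32), Sqor, a mitochondrial enzyme of sulfide oxidation (1.34 and 1.16), Ampd3, an AMP deaminase (2.56 and 1.12), Qsox1, which forms disulfide bonds in secreted proteins (1.83 and 1.11), Stom, the membrane protein stomatin (1.11 and 1.20), Lmo7, an actin- and junction-associated LIM protein (1.04 and 1.03), and Mgst2, a microsomal glutathione transferase (1.72 and 1.02).

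**Figure D1:**
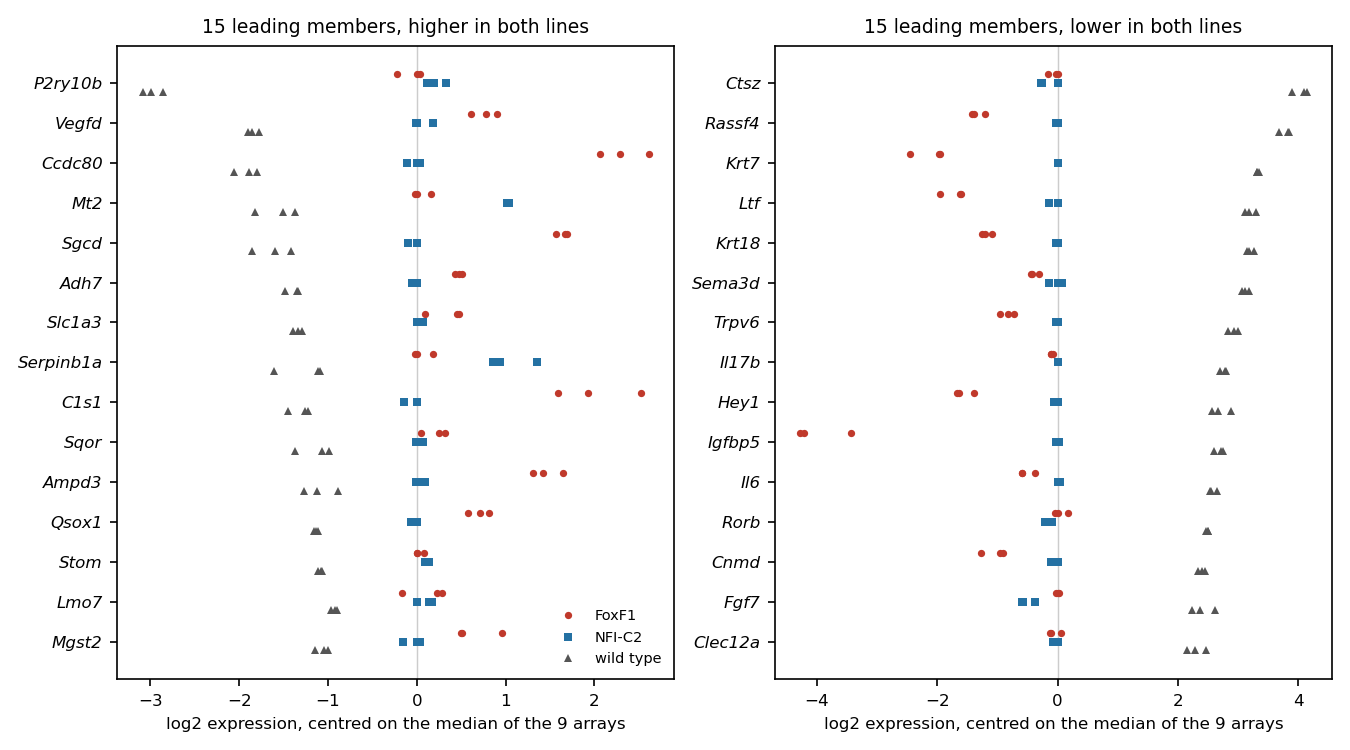
Centred log2 expression (x axis) on each of the 9 arrays for the 15 leading members higher (left panel) and the 15 lower (right panel) in both lines, with circles for FoxF1, squares for NFI-C2 and triangles for wild type. The transfected and wild type arrays do not overlap by the rule, and for Ctsz the 6 transfected arrays lie between -0.27 and 0.01, whereas for Igfbp5 the FoxF1 arrays lie far below the NFI-C2 arrays.

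Whether the 2 lines were shifted to the same extent is a separate comparison, which the rule did not use and which limma tested directly as FoxF1 minus NFI-C2. Over all genes 42% were called in this comparison, 22.9% higher and 19.1% lower with FoxF1. Among the 902 members higher in both lines, 521 were called (57.8%), with FoxF1 farther from wild type in 435 and NFI-C2 in 86, and 381 did not pass. Among the 1376 lower in both lines, 770 were called (56%), with FoxF1 farther in 628 and NFI-C2 in 142, and 606 did not pass. These counts changed with scale normalization and with the size tested for. After scale normalization 535 members in all were farther with FoxF1 in place of 1063. That scaling draws in the FoxF1 arrays, which had the largest spread, so the lower count does not test the difference between the lines. In a test against 1.5-fold 371 were farther with FoxF1 and 18 with NFI-C2, in place of 1063 and 228. Of the members past 1.5-fold in both lines, 57 of 71 higher and 190 of 262 lower were called.

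In several of the strongest shared shifts no difference between the lines was called, and the interval of that difference was narrow. Ctsz differed between the lines by 0.12 (95% confidence interval -0.10 to 0.34, adjusted p = 0.41), Clec12a by -0.01 (95% confidence interval -0.21 to 0.19, adjusted p = 0.98) and Lmo7 by 0.01 (95% confidence interval -0.26 to 0.27, adjusted p = 1). Serping1, the C1 inhibitor, differed by 0.00 (95% confidence interval -0.19 to 0.20, adjusted p = 1), with a difference from wild type of -1.41 in each line. Stom, just short of the threshold, differed by -0.08 (95% confidence interval -0.15 to -0.02, adjusted p = 0.052).

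Other shared shifts were graded. Lower with FoxF1 than with NFI-C2 were Igfbp5, with a difference of -3.97 (95% confidence interval -4.45 to -3.50, adjusted p = 2.3e-06), Krt7, with -2.12 (95% confidence interval -2.41 to -1.84, adjusted p = 4.6e-06), and Krt18, with -1.18 (95% confidence interval -1.28 to -1.07, adjusted p = 5.1e-07). Higher with FoxF1 was Ccdc80, with 2.35 (95% confidence interval 2.03 to 2.67, adjusted p = 4.5e-06). Mt2 differed by -0.98 (95% confidence interval -1.23 to -0.73, adjusted p = 1.7e-04) and Serpinb1a by -1.0 (95% confidence interval -1.41 to -0.59, adjusted p = 0.0022), both with the higher values in NFI-C2 cells. Fgf7 differed by 0.51 (95% confidence interval 0.27 to 0.74, adjusted p = 0.0039), with the lower values in NFI-C2 cells.

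**Figure D2:**
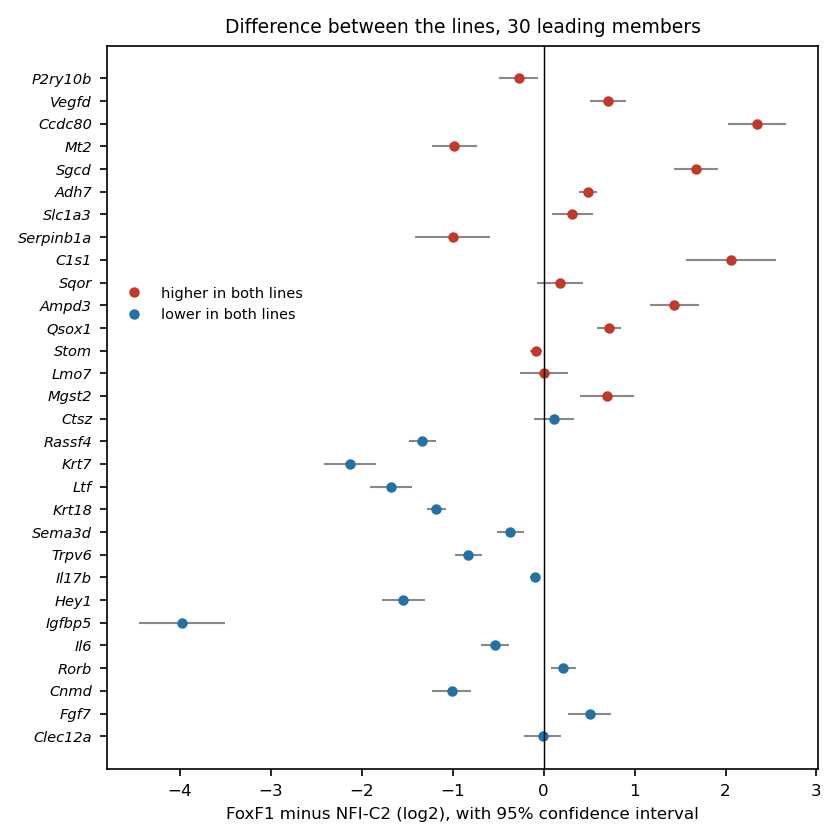
FoxF1 minus NFI-C2 on the log2 scale (x axis) with its 95% confidence interval from limma for the 30 leading members, those higher in both lines in red and those lower in blue. Intervals of Ctsz, Clec12a, Lmo7 and Sqor include 0, and that of Igfbp5 reaches from -4.45 to -3.50.

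The most unequal members met the rule through a large shift in 1 line and a small one in the other. Wfdc18, a secreted whey acidic protein-type protease inhibitor, had -7.05 to -6.09 on the FoxF1 arrays and -0.06 to 0.02 on the NFI-C2 arrays, against 0.20 to 0.26 on the wild type arrays. Epcam, an epithelial adhesion molecule, had -6.65 to -5.82 on the FoxF1 arrays and -0.06 to 0.00 on the NFI-C2 arrays, against 0.33 to 0.46 on the wild type arrays, and Ehf, an epithelial ETS factor, had -5.69 to -5.64 on the FoxF1 arrays and -0.09 to 0.07 on the NFI-C2 arrays, against 0.27 to 0.36 on the wild type arrays. For these, the NFI-C2 and wild type arrays were close and the FoxF1 arrays far lower. Ankrd1, a nuclear cofactor induced by YAP, was the reverse case, with -0.06 to 0.08 on the FoxF1 arrays and -3.98 to -3.78 on the NFI-C2 arrays, against 0.88 to 1.04 on the wild type arrays. Bbs2, a protein of cilia on chromosome 8, was higher with NFI-C2, at -0.13 to 0.00 on the FoxF1 arrays and 2.04 to 2.17 on the NFI-C2 arrays, against -0.38 to -0.26 on the wild type arrays.

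**Figure D3:**
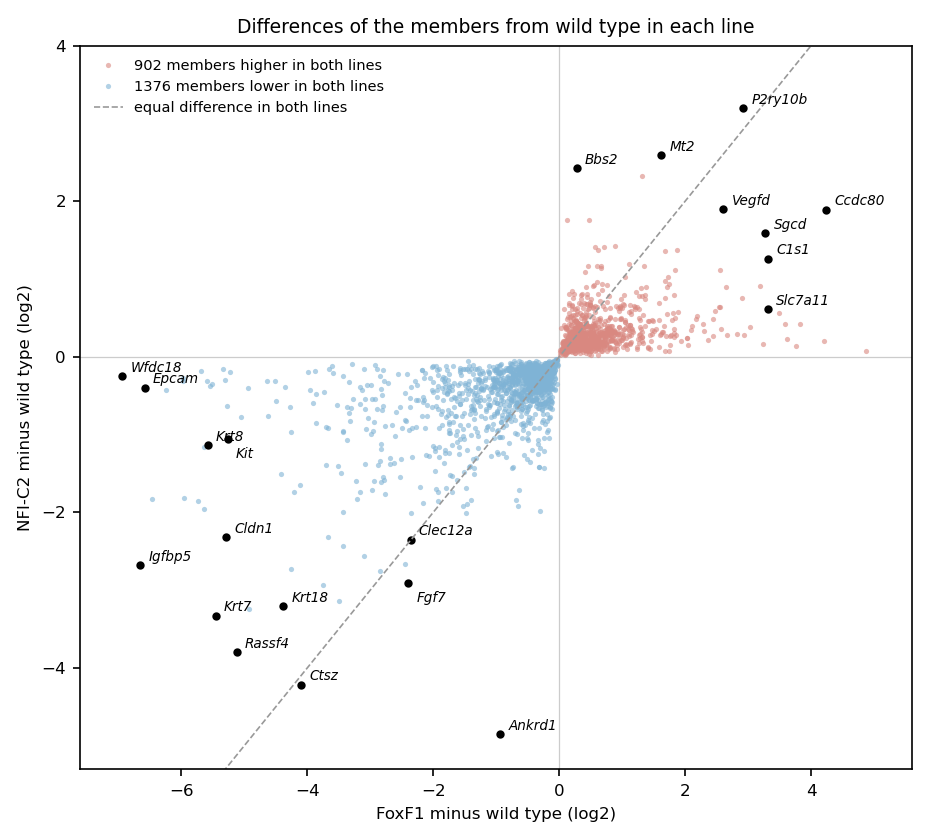
Difference of each member from wild type in the FoxF1 line (x axis) and in the NFI-C2 line (y axis), both in log2 and both taken against the same 3 wild type arrays, with selected genes named. Points fill the upper right and lower left quadrants by the rule, and the FoxF1 difference is the larger in 664 of 902 members higher and 977 of 1376 members lower, as in Epcam at -6.58 and -0.40.

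Tight junction genes, luminal markers and epithelial regulators had the largest shares of members lower in both lines among the 44 lists. Of 23 tight junction and apical polarity genes measured, 13 were lower (56.5%) and 0 higher, where 7.44% of all genes were lower. The median difference of the list was -1.72 with FoxF1 and -0.40 with NFI-C2. Claudins seal the space between epithelial cells, and 5 of them were members. Cldn1 had -3.08, -2.94 and -2.97 on the FoxF1 arrays and 0.00, -0.11 and 0.01 on the NFI-C2 arrays, against 2.23, 2.35 and 2.27 on the wild type arrays. Cldn4 had -1.15, -0.95 and -1.97 on the FoxF1 arrays and 0.00, 0.00 and 0.00 on the NFI-C2 arrays, against 2.24, 2.37 and 2.33 on the wild type arrays. In both, FoxF1 was lowest and NFI-C2 lay midway. Cldn7, in contrast, had -0.03, -0.15 and 0.00 on the FoxF1 arrays and 0.08, -0.01 and -0.02 on the NFI-C2 arrays, against 2.02, 1.65 and 1.93 on the wild type arrays, so that its transfected arrays overlapped and the lines differed by -0.07 (95% confidence interval -0.29 to 0.15, adjusted p = 0.61).

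The other claudins, Cldn3 (-2.49 and -0.92 with FoxF1 and NFI-C2) and Cldn23 (-0.58 and -0.54), were joined by the transmembrane proteins Ocln, occludin (-2.44 and -0.82), Marveld2 (-2.52 and -0.64) and Marveld3 (-1.86 and -0.88). The plaque proteins Tjp1 (-0.20 and -0.29), Tjp3 (-1.79 and -0.77) and Cgn, cingulin (-2.15 and -0.27), and the polarity proteins Pard6b (-1.13 and -0.61) and Crb3 (-0.82 and -0.57) were lower too. Of the 13 genes, 10 differed between the lines by limma. Adherens junction genes had 2 of 13 lower (15.4%), Ctnnd1, p120 catenin (-1.72 and -0.55), and Afdn, afadin (-0.58 and -0.67). Desmosome genes had 1 of 12 lower (8.33%), Pkp2, the plakophilin also found in simple epithelium (-0.31 and -1.18).

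Of 20 luminal markers measured, 9 were lower in both lines (45%) and 1 higher, with list medians of -1.67 with FoxF1 and -0.27 with NFI-C2. In these bulk samples, fewer cells of a type and less RNA per cell cannot be told apart. Krt8, the keratin partner of Krt18, had -3.80, -4.65 and -4.98 on the FoxF1 arrays and 0.00, -0.17 and 0.09 on the NFI-C2 arrays, against 1.05, 1.14 and 1.13 on the wild type arrays. Kit, a receptor of luminal progenitors, had -4.37, -4.02 and -4.14 on the FoxF1 arrays and 0.15, -0.06 and 0.00 on the NFI-C2 arrays, against 1.08, 0.98 and 1.21 on the wild type arrays, and Elf5, a transcription factor of alveolar cells, had -0.83, -0.98 and -0.82 on the FoxF1 arrays and 0.00, -0.12 and 0.02 on the NFI-C2 arrays, against 0.98, 0.92 and 0.50 on the wild type arrays. All 3 had their lowest values with FoxF1. Cd14 (-2.17 and -0.59), Cd24a (-1.76 and -0.22), Epcam and Ehf were also lower. Esr1, the estrogen receptor, was the marker higher in both lines (1.14 and 0.28).

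Of 18 keratins, 4 were lower in both lines (22.2%), namely Krt7, Krt8, Krt18 and Krt80 (-0.69 and -0.59), and 0 were higher. The list medians were -1.73 with FoxF1 and 0.03 with NFI-C2. Among the 14 that were not members, some went opposite ways in the lines, such as Krt16 (-2.68 and 2.77), Krt6a (-4.09 and 1.81) and Krt6b (-2.43 and 0.46). Others, such as Krt10 (-0.02 and -0.02), hardly moved. Of 20 epithelial regulators, 9 were lower (45%), with FoxF1 farther from wild type in each of the 9 by limma. These 9 include the protease inhibitors Spint1 (-4.49 and -0.57) and Spint2 (-5.34 and -0.15), the membrane protease St14, matriptase (-5.3 and -0.30), and the transcription factor Grhl1 (-2.36 and -0.39). The list as a whole was not lower with NFI-C2, with medians of -3.42 with FoxF1 and -0.04 with NFI-C2. Its array means were 0.179 to 0.235 with NFI-C2, against 0.15 to 0.22 in wild type. Among the 11 genes that were not members, Klf5 (-0.42 and 0.79) and Grhl2 (-3.72 and 0.47) were higher with NFI-C2, whereas Grhl3 (-1.70 and -0.10) was not. Of 17 basal markers, 1 was a member (5.88%), Snai2, a transcriptional repressor (0.35 and 0.80). With Zeb2 (1.94 and 0.20) and Twist1 (1.5 and 0.33) it made 3 of 16 EMT genes higher (18.8%). The other 13 EMT genes were not members, and the list medians were 1.72 with FoxF1 and -0.01 with NFI-C2. The mean centred value of the EMT list was 1.69 to 1.74 on FoxF1 arrays. On NFI-C2 arrays it was -0.47 to -0.42, below the -0.125 to -0.071 of wild type arrays. The basal keratins Krt5 and Krt14 were not members, at -7.34 and -5.59 with FoxF1 and 0.22 and 0.43 with NFI-C2.

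In each of the lists of fibroblast, endothelial, immune and adipocyte markers 1 gene was a member, a share of 8.33% to 12.5% where 4.88% of all genes were higher and 7.44% lower. The members were Pdgfra of 12 fibroblast genes (1.27 and 0.39), Flt1 of 10 endothelial genes (-0.98 and -0.72), Fcer1g of 12 immune genes (-0.13 and -0.09) and Pparg of 8 adipocyte genes (0.20 and 0.18). The mean centred value of the fibroblast list was -0.05 to 0.41 on FoxF1 arrays and -0.01 to 0.06 on NFI-C2 arrays, against -0.08 to -0.04 on wild type arrays. For the endothelial list it was -0.17 to -0.12 on FoxF1 arrays and 0.04 to 0.06 on NFI-C2 arrays, against 0.05 to 0.06 on wild type arrays. The immune list lay between -0.01 and 0.04 in all groups. For the adipocyte list the mean was 0.25 to 0.44 on FoxF1 arrays and -0.03 to 0.00 on NFI-C2 arrays, against -0.05 to -0.02 on wild type arrays. Fap, Emcn and Itgam were at the lowest value on all 9 arrays, and the part of other cell types in the shared shifts was not tested.

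**Figure D4:**
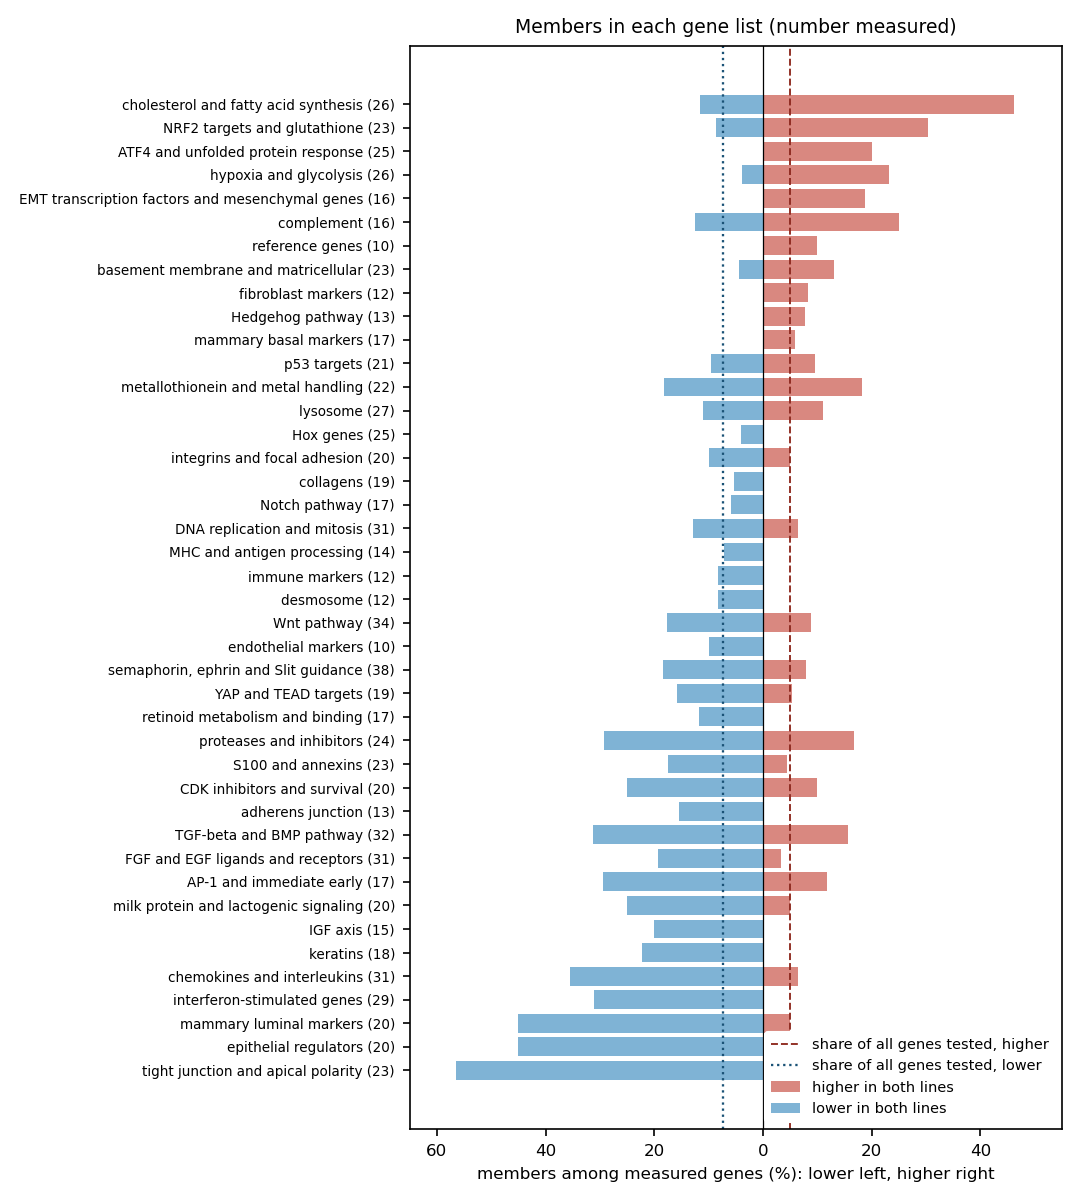
Share of the measured genes of each list that were members (x axis, in percent), lower in both lines to the left and higher to the right, with the number measured in parentheses. Dashed and dotted lines mark the shares over all genes tested, 4.88% higher and 7.44% lower, and lists with 10 or more measured genes are ordered from cholesterol and fatty acid synthesis, with 46.2% higher, at the top to tight junction and apical polarity, with 56.5% lower, at the bottom.

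Cytokines and chemokines were mostly lower where they were members. Of 31 measured, 11 were lower in both lines (35.5%) and 2 higher (6.45%). Beside Il6 and Il17b, Cxcl2, which attracts neutrophils, had -0.19, -0.08 and -0.14 on the FoxF1 arrays and 0.00, -0.06 and 0.14 on the NFI-C2 arrays, against 1.68, 1.68 and 1.33 on the wild type arrays, with the transfected arrays of both lines close together and the lines not separated by limma (-0.16, adjusted p = 0.27). Cxcl1, a close relative, had -2.56, -2.37 and -2.36 on the FoxF1 arrays and 0.01, -0.03 and 0.00 on the NFI-C2 arrays, against 0.58, 0.35 and 0.28 on the wild type arrays, far below wild type with FoxF1 and slightly below it with NFI-C2. Ccl5 (-1.60 and -1.25), the granulocyte growth factor Csf3 (-1.17 and -0.94), Lif (-1.92 and -0.67), the interleukin-1 antagonist Il1rn (-3.08 and -1.38), Cxcl16 (-3.96 and -0.43), Cx3cl1 (-0.69 and -0.29) and Il15 (-0.16 and -0.28) were lower too. Il34, a ligand of the CSF1 receptor (1.05 and 0.47), was higher, and Ccl7 met the rule with differences of 0.05 and 0.07.

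The letters GGGA, any base and TTTCC, a form of the site bound by NF-kappa B, were found on either strand in the promoter (250 bases before to 50 after the start) of 3 of the 6 cytokine members lower in both lines that have a promoter in the RefSeq table, against 0.422% of 14447 promoters. The 3 genes lie on chromosome 5. Their windows are shown from RefSeq, build GRCm38.p6, 5′ to 3′ on the strand of the gene, with the match in capitals, since this site is known as the one through which inflammatory signals switch these genes on. The coordinates are chr5:30012864-30013163 for Il6, chr5:90903649-90903948 for Cxcl2 and chr5:90890995-90891294 for Cxcl1, all on the plus strand.
Il6: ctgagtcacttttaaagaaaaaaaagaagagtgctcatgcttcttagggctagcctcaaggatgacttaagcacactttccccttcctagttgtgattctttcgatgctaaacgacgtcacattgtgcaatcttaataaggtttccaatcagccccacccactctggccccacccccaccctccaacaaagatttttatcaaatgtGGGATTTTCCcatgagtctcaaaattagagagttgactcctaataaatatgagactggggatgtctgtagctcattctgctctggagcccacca
Cxcl2: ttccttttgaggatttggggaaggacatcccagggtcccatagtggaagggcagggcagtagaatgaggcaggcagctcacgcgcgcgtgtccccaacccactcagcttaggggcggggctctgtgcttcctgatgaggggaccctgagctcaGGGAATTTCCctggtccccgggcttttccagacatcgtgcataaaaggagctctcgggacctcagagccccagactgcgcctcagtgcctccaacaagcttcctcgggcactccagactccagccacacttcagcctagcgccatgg
Cxcl1: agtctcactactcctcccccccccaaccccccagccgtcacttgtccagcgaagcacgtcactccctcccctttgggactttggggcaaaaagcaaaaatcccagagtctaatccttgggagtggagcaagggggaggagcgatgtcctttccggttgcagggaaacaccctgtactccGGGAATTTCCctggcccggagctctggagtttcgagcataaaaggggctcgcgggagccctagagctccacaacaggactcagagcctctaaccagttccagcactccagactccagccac
The match begins at base -44 in Il6, -97 in Cxcl2 and -71 in Cxcl1, counted from the start. Over all members lower in both lines 10 of 1065 promoters held these letters (0.939%), and over those higher 2 of 736 (0.272%). An AP-1 site, TGACTCA, was also found in 3 of the 6 cytokine promoters, against 4.43% of all, and in 3.57% and 4.21% of the promoters of members lower and higher. A match is a description of the sequence and not evidence of binding. Promoters of cytokine genes that were not members were not counted, so these shares cannot be tied to being lower in both lines.

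Of 29 interferon-stimulated genes, 9 were lower in both lines (31%) and 0 higher, with list medians of -0.29 with FoxF1 and -0.03 with NFI-C2. Rtp4, a receptor transporter protein, had -0.93, -0.98 and -1.44 on the FoxF1 arrays and 0.24, 0.00 and 0.00 on the NFI-C2 arrays, against 1.54, 1.40 and 1.26 on the wild type arrays. Gbp3, a guanylate-binding protein of cell-autonomous defence, had -0.14, -0.20 and -0.47 on the FoxF1 arrays and 0.14, -0.14 and 0.00 on the NFI-C2 arrays, against 0.96, 1.1 and 0.99 on the wild type arrays. Parp14, an ADP-ribosyltransferase, had 0.00, 0.01 and -0.38 on the FoxF1 arrays and -0.04, -0.33 and -0.29 on the NFI-C2 arrays, against 0.78, 0.78 and 0.88 on the wild type arrays. Rtp4 was lowest with FoxF1. In Parp14 the arrays of the 2 lines overlapped and in Gbp3 they nearly met, and limma called no difference between the lines (adjusted p = 0.59 for Parp14 and 0.074 for Gbp3).

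Sensors of foreign RNA were among them. Ifih1, which detects long double-stranded RNA, differed by -1.68 with FoxF1 and -0.65 with NFI-C2, and Ddx58, which encodes RIG-I, by -2.02 with FoxF1 and -0.43 with NFI-C2, both farther with FoxF1. Ifit1, which binds foreign RNA caps, had -1.54 and -0.76, Oasl2 -1.52 and -1.01, Xaf1 -1.68 and -0.52 and Bst2, tetherin, -0.48 and -0.55. Tlr3, an endosomal RNA receptor outside the list, had -2.65 and -0.88. Sting1, an adaptor of DNA sensing, was lower mainly with NFI-C2, at -0.30 and -1.99. Common interferon targets that were not members include Mx1 (0.00 and 0.01), Rsad2 (-0.02 and 0.01) and Irf7 (-0.30 and 0.05).

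The letters GAAA, any 2 bases and GAAA, the core of the interferon-stimulated response element, were found on either strand in 5 of the 7 promoters of these genes that the table holds (71.4%), against 3.23% of 14447, namely those of Ifit1, Gbp3, Ddx58, Ifih1 and Bst2. The 3 windows shown carry 1 match in Ddx58 and 2 in Ifit1 and Gbp3, where those of Gbp3, a gene with 2 start windows in the table, overlap. They cover chr19:34640639-34640938 and chr3:142559794-142560093 on the plus strand and chr4:40239776-40240075 on the minus strand (GRCm38.p6).
Ifit1: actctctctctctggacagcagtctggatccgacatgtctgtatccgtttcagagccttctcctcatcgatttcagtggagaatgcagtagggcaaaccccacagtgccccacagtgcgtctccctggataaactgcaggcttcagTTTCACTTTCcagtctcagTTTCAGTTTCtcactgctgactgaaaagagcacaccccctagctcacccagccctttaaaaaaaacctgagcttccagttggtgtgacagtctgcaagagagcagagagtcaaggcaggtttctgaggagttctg
Gbp3: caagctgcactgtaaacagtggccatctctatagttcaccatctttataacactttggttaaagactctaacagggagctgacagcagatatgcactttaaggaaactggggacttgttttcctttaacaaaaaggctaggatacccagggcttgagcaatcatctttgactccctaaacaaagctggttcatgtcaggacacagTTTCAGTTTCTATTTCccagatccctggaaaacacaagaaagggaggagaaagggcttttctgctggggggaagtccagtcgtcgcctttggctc
Ddx58: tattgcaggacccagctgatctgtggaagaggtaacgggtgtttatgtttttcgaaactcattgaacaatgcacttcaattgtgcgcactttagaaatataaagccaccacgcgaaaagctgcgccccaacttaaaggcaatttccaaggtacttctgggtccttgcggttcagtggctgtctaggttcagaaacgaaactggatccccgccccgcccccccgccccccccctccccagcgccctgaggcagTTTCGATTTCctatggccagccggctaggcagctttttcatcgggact
The matches begin at bases -104 and -85 in Ifit1, -45 and -39 in Gbp3 and 2 in Ddx58. Of all members lower in both lines 38 of 1065 promoters held the letters (3.57%), and of those higher 20 of 736 (2.72%). Promoters of interferon-stimulated genes that were not members were not counted, so the 5 of 7 cannot be tied to being lower in both lines.

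Genes of cholesterol synthesis were the group most represented among the members higher in both lines. This pathway is switched on by SREBP-2 when the sterol content of the endoplasmic reticulum falls. Of 26 genes of cholesterol and fatty acid synthesis, 12 were higher (46.2%, where 4.88% of all genes were) and 3 lower, with list medians of 0.31 with FoxF1 and 0.14 with NFI-C2. The shifts were mostly small. Hmgcs1, which makes HMG-CoA, had 0.00, 0.01 and -0.18 on the FoxF1 arrays and 0.31, 0.34 and 0.30 on the NFI-C2 arrays, against -0.85, -0.54 and -0.44 on the wild type arrays. Its cluster is placed on an unlocalized part of chromosome 13. Fdft1, squalene synthase, had 0.05, 0.00 and 0.00 on the FoxF1 arrays and 0.07, 0.11 and 0.16 on the NFI-C2 arrays, against -0.42, -0.32 and -0.46 on the wild type arrays. The Fdft1 cluster covers only a short stretch of chromosome 14, from 19363877 to 19364974 (NCBIM37). Whether it measures the gene itself or a copy was not checked. Cyp51, which removes a methyl group from lanosterol, had 0.47, 0.58 and 0.42 on the FoxF1 arrays and 0.00, 0.00 and 0.00 on the NFI-C2 arrays, against -0.55, -0.48 and -0.41 on the wild type arrays.

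Between the lines, Cyp51 differed by 0.49 (95% confidence interval 0.38 to 0.61, adjusted p = 1.0e-04), higher with FoxF1, and Hmgcs1 by -0.38 (95% confidence interval -0.62 to -0.13, adjusted p = 0.02), higher with NFI-C2. In Fdft1 the difference did not pass (-0.10, adjusted p = 0.091). The other enzymes were Mvk (0.22 and 0.32), Sqle (0.67 and 0.14), Lss (0.41 and 0.25) and Msmo1 (0.84 and 0.33), joined by the regulators Srebf2 (0.25 and 0.14) and Insig1 (1.27 and 0.17), the sterol carrier Stard4 (0.27 and 0.13), and Acly (0.09 and 0.15) and Scd1 (0.17 and 0.20) of fatty acid synthesis. The genes lower in both lines belong to the fatty acid branch. They were Fasn, fatty acid synthase (-1.86 and -0.41), Srebf1, its regulator (-0.57 and -0.18), and Fads2, a desaturase (-0.60 and -0.30). Leaving out 1 array at a time, 12 to 15 genes of the list met the rule on the higher side and 3 on the lower side. The rule over fewer arrays can only keep or add members, so these counts could not fall.

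The letters TCACNCCAC, a sterol regulatory element, were found on either strand in 1 of the 8 promoters available for the sterol genes higher in both lines, that of Hmgcs1 (chr13:119690101-119690400, plus strand, GRCm38.p6), and in 1.19% of all promoters. The match begins at base -137, and the window is shown because Hmgcs1 led the list when genes were ranked by the smaller of the 2 differences.
Hmgcs1: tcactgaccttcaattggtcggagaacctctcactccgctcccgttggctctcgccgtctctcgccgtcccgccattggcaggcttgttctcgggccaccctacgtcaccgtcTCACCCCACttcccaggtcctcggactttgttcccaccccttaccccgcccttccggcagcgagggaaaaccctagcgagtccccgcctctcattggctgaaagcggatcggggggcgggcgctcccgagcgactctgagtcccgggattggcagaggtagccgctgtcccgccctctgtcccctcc

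Of 22 genes of metal handling 4 were higher in both lines and 4 lower (18.2% each). Metallothioneins are induced by zinc through MTF-1. Mt1 had 0.08, 0.00 and -0.10 on the FoxF1 arrays and 0.24, 0.12 and 0.17 on the NFI-C2 arrays, against -0.50, -0.62 and -0.77 on the wild type arrays, and its neighbour Mt2 is described above. Mt3 was not a member (-0.02 and 0.09). Steap1, a membrane protein of the STEAP family (3.19 and 0.91), and the zinc exporter Slc30a4 (1.28 and 0.29) were higher. The zinc importers Slc39a4 (-2.83 and -1.12) and Slc39a14 (-0.33 and -0.24), the transferrin receptor Tfrc (-0.43 and -0.37) and Trpv6 were lower.

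The metal-responsive core was searched as TGCACNC and TGCGCNC on either strand, which differ in a single letter. The first was found in 3 of 4 promoters of the metal genes higher in both lines, against 12.7% of all promoters, and the second in 4 of 4, against 21.9%. The second was also found in 1 of 2 promoters of the metal genes lower in both lines, and in 28.4% of promoters of all members higher and 27.1% of those lower, where the first was found in 13.9% and 13.6%. The windows of Mt2 and Mt1 carry 4 and 3 matches and cover chr8:94172368-94172667 and chr8:94178839-94179138 on the plus strand (GRCm38.p6).
Mt2: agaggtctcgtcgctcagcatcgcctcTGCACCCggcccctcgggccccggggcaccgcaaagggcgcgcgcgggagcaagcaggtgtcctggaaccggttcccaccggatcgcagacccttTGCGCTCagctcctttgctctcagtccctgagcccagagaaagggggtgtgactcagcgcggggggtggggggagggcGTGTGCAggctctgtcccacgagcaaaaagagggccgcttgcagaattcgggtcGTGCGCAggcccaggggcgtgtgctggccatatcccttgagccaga
Mt1: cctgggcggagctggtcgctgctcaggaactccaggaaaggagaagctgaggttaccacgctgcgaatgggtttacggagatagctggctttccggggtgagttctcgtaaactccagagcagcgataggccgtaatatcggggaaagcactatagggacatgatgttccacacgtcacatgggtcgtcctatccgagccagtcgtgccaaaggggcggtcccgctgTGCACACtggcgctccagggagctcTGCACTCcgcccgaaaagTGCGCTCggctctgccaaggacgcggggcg
Both kinds of match are in capitals, and they begin between base -223 and 4 in Mt2 and between -23 and 20 in Mt1. Promoters of metal genes that were not members were not counted.

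Of 23 NRF2 target and glutathione genes, 7 were higher in both lines (30.4%) and 2 lower, with list medians of 0.34 with FoxF1 and 0.26 with NFI-C2. Gstm1, a cytosolic glutathione transferase, had 1.0, 0.57 and 0.49 on the FoxF1 arrays and 0.02, -0.09 and 0.00 on the NFI-C2 arrays, against -0.95, -0.94 and -1.11 on the wild type arrays. Slc7a11, the cystine importer, had 2.59, 2.78 and 2.79 on the FoxF1 arrays and 0.00, 0.15 and -0.07 on the NFI-C2 arrays, against -0.67, -0.48 and -0.60 on the wild type arrays, with the FoxF1 arrays far above the rest. Aldh3a1, an aldehyde dehydrogenase, had 0.50, 0.00 and -0.25 on the FoxF1 arrays and 0.75, 0.45 and 0.48 on the NFI-C2 arrays, against -0.69, -0.39 and -0.64 on the wild type arrays, with overlapping lines. Gstp1 (0.74 and 0.14), Mgst2, Nfe2l2, which encodes NRF2 itself (0.36 and 0.23), and Gstm3, whose array position is not on the chromosome given by RefSeq (1.13 and 0.66), were higher. Gclm, a subunit of the enzyme that starts glutathione synthesis (-0.15 and -0.64), and Mgst1 (-1.29 and -0.29) were lower. The glutathione transferases Gsta4 (-2.04 and 0.26) and Gsta3 (-0.56 and 2.75) were not members.

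Of 16 complement genes 4 were higher in both lines (25%) and 2 lower (12.5%). Those higher were the proteases of the first component C1s1 and C1ra (1.36 and 0.74), the related C1rl (0.94 and 0.24) and the lectin pathway protease Masp1 (0.66 and 0.22). Serping1, which inhibits proteases of the first component, was lower, with -0.11, -0.11 and 0.00 on the FoxF1 arrays and -0.24, -0.06 and 0.09 on the NFI-C2 arrays, against 1.29, 1.30 and 1.42 on the wild type arrays. Cfb, factor B, a protease of the alternative pathway, was lower too (-0.41 and -0.27). C1qa, C1qb and C1qc, the recognition subunits, were not members, with differences of at most 0.05 with FoxF1 and 0.06 with NFI-C2.

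Proteases of the extracellular space went both ways, with 4 of 24 genes higher (16.7%) and 7 lower (29.2%), where 4.88% and 7.44% of all genes were. Plau, urokinase (1.21 and 0.64), Plat (0.27 and 0.47) and Mmp11 (0.81 and 0.62) were higher. Adamts1, a proteoglycan-degrading protease, had -0.09, 0.10 and 0.00 on the FoxF1 arrays and -1.14, -0.94 and -1.11 on the NFI-C2 arrays, against 0.60, 0.73 and 0.61 on the wild type arrays, lower most with NFI-C2, and Adamts4 had 0.10, -0.01 and -0.01 on the FoxF1 arrays and -0.05, -0.27 and 0.00 on the NFI-C2 arrays, against 0.91, 1.06 and 0.82 on the wild type arrays, alike in both lines. Slpi, a secreted leukocyte protease inhibitor (-0.99 and -0.59), and Timp3 (-1.75 and -0.44) were lower. F3, tissue factor, which starts coagulation, had 0.00, 0.02 and -0.10 on the FoxF1 arrays and -0.52, -0.48 and -0.23 on the NFI-C2 arrays, against 1.59, 1.56 and 1.38 on the wild type arrays.

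In the TGF-β and BMP pathway 10 of 32 genes were lower in both lines (31.2%) and 5 higher (15.6%). Among secreted modulators, Fst, the activin antagonist follistatin, had -1.42, -1.33 and -1.55 on the FoxF1 arrays and 0.00, 0.00 and -0.02 on the NFI-C2 arrays, against 1.84, 1.72 and 1.64 on the wild type arrays, Fstl1 differed by -0.98 and -1.23 with FoxF1 and NFI-C2, and Inhba, an activin subunit, by -1.92 and -0.24. The Id genes, which encode inhibitors of basic helix-loop-helix factors and are induced by BMP signals, were represented by 3 members, with Id1 at -1.64 and -0.76, Id2 at -1.62 and -1.09 and Id3 at -0.47 and -0.28. Among receptors Tgfbr1 was lower (-0.57 and -0.85), and Tgfbr2 (0.98 and 0.50) and Tgfbr3 (2.66 and 0.28) were higher. Among Smads, Smad3 was lower (-0.31 and -0.28), and Smad1 (0.25 and 0.37), Smad4 (0.14 and 0.09) and Smad9 (0.82 and 0.22) were higher.

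In the list of FGF and EGF ligands, receptors and feedback genes 6 of 31 were lower in both lines (19.4%) and 1 higher, and Fgf7 led those lower. Dusp6, a phosphatase that acts on ERK, had -0.04, -0.04 and -0.16 on the FoxF1 arrays and 0.00, -0.23 and 0.08 on the NFI-C2 arrays, against 0.80, 0.95 and 0.92 on the wild type arrays, and the lines differed by -0.03 (95% confidence interval -0.23 to 0.17, adjusted p = 0.85). Dusp4 had -1.81 and -1.23 and Spry2, a feedback inhibitor of receptor tyrosine kinases, -0.34 and -0.66. The feedback genes Spry1 (0.55 and -0.25) and Spry4 (0.05 and 0.02) were not members. The receptor Erbb3 (-3.60 and -0.21) and the ligand Btc (-0.52 and -0.27) were lower too. Nrg1, a ligand of ERBB3, was the gene higher in both lines (2.57 and 0.35). Of 17 AP-1 and immediate early genes 5 were lower (29.4%, where 7.44% of all genes were), such as Egr3 (-0.40 and -0.41) and Nr4a1 (-0.87 and -0.43). The 2 higher (11.8%, where 4.88% were) were Fosl2 (0.77 and 0.47) and Myc (0.43 and 0.18).

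The Wnt list had 3 of 34 genes higher in both lines (8.82%) and 6 lower (17.6%). Rspo3, which enhances Wnt signaling, had 0.00, 0.00 and -0.16 on the FoxF1 arrays and 0.00, 0.00 and -0.07 on the NFI-C2 arrays, against 1.68, 1.58 and 1.42 on the wild type arrays, and no difference between the lines was called (-0.03, adjusted p = 0.82). Sfrp1, a secreted Wnt antagonist (-5.27 and -0.63), Igfbp2 (-3.44 and -0.95) and the matrix glycoprotein Tnc, tenascin C (-2.69 and -1.30), were lower chiefly with FoxF1. Itgb3, the β3 integrin, had 0.00, -0.59 and -0.23 on the FoxF1 arrays and -0.04, 0.00 and -0.01 on the NFI-C2 arrays, against 1.51, 1.94 and 1.59 on the wild type arrays. Sema3e (-0.75 and -0.69), which lies near Sema3d on chromosome 5, was lower too. Of 38 guidance genes 7 were lower (18.4%) and 3 higher (7.89%), among those higher Ntn1, netrin (2.44 and 0.49).

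Of 25 genes of ATF4 and the unfolded protein response 5 were higher in both lines (20%) and 0 lower, among them Herpud1, of endoplasmic reticulum-associated degradation (1.24 and 0.64), and Shmt2 (1.1 and 0.26). Of 26 hypoxia and glycolysis genes 6 were higher (23.1%) and 1 lower (3.85%), with Eno2 (1.89 and 0.58) and Pdk1 (1.16 and 0.34) leading. Medians of that list were 0.30 with FoxF1 and 0.03 with NFI-C2. Of 21 p53 targets 2 were higher and 2 lower (9.52% each). Those higher were Sesn1 (0.46 and 1.16) and Eda2r (0.53 and 0.91), both more with NFI-C2. After quantile or scale normalization 5 were higher and 2 lower. Without wild type replicate 3, 4 were higher. The CDK inhibitors Cdkn2a (0.89 and 0.32) and Cdkn2b (1.80 and 0.48) were higher. Cdkn1c, another CDK inhibitor (-0.28 and -0.24), and Bcl2l1, a survival factor (-1.07 and -0.46), were lower. Of 31 genes of replication and mitosis 4 were lower (12.9%) and 2 higher (6.45%).

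Milk and lactogenic genes had 5 of 20 lower (25%, where 7.44% of all genes were) beside 1 higher (5%, where 4.88% were). With Ltf and Elf5 these were Lcn2, lipocalin 2 (-5.68 and -0.18), Socs2, a feedback inhibitor of cytokine signaling (-1.86 and -0.28), and Stat5b (-0.27 and -0.24). Xdh, xanthine dehydrogenase, was higher (2.08 and 0.34). Of 27 lysosomal genes 3 were lower and 3 higher (11.1% each). Those lower were Ctsz, Ctsh (-3.43 and -0.25) and Ctsd (-0.81 and -0.31). Those higher were Ctsb (1.44 and 0.10), Lgmn (1.68 and 0.08) and Lamp2 (0.34 and 0.10), and the NFI-C2 difference of Ctsz was the largest of the 6. Without NFI-C2 replicate 2, 6 were higher, without wild type replicate 1, 5 were, and without NFI-C2 replicate 1, 5 were lower. Of 17 retinoid genes 2 were lower (11.8%), the synthetic enzyme Rdh10 (-3.30 and -0.66) and the degrading enzyme Cyp26b1 (-1.25 and -0.40).

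Over all genes 4.88% were higher and 7.44% lower, and several shares of the other lists lay near these. The list of CDK inhibitors and survival genes had 2 of 20 higher (10%) and 5 lower (25%). The IGF axis had 0 of 15 higher and 3 lower (20%). YAP targets had 1 of 19 higher (5.26%) and 3 lower (15.8%), or 5 lower without NFI-C2 replicate 1. Of 23 S100 and annexin genes 1 was higher (4.35%) and 4 were lower (17.4%). Of 20 integrin and focal adhesion genes 1 was higher (5%), Itgb5 (0.73 and 0.46), and 2 lower (10%), Itgb3 and Itgb8 (-1.33 and -0.28). Of 23 basement membrane and matricellular genes 3 were higher (13%), among them the proteoglycan Hspg2, perlecan (0.60 and 0.63), and 1 lower (4.35%), Tnc. Gas1, a membrane co-receptor for Hedgehog, was higher (0.88 and 1.43) as 1 of 13 genes of that pathway (7.69%). H2-Q4 was lower (-1.13 and -0.50) as 1 of 14 genes of antigen presentation (7.14%).

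Lists near the share over all genes include the collagens, with 1 of 19 lower, Col4a2 (-0.52 and -0.31), the Notch list, with Hey1 as 1 of 17, and the Hox genes, with 1 of 25. Of 10 reference genes 1 was a member, Rplp0 (0.09 and 0.11). Of 6 FoxF and NFI genes measured, 1 was a member. This was Foxf2, higher in both lines at 0.08, 0.00 and -0.01 on the FoxF1 arrays and 0.33, 0.17 and 0.04 on the NFI-C2 arrays, against -0.42, -0.21 and -0.34 on the wild type arrays.

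The members past 1.5-fold in both lines included secreted proteins at a higher share than all genes did, by the annotation of the array. Extracellular region or space was assigned to 28.6% of those higher (16 of 56 annotated) and 32.2% of those lower (65 of 202), against 16.4% of all annotated genes. Nucleus was assigned to 7.14% and 13.4%, against 25.7%. Tight junction was assigned to 3.96% of those lower (8 genes), against 0.494%. Over all members regardless of fold, 14.6% of those higher and 16.6% of those lower were extracellular.

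Position on the chromosome was uneven. Chromosome 8 held members higher in both lines in 11% of its 922 genes and chromosome 15 in 9.46% of 708, where 4.88% of all genes were. Members lower in both lines made up 13.2% of 882 genes on chromosome 10, 10.2% on chromosome 5 and 10.1% on chromosome 4.

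**Figure D5:**
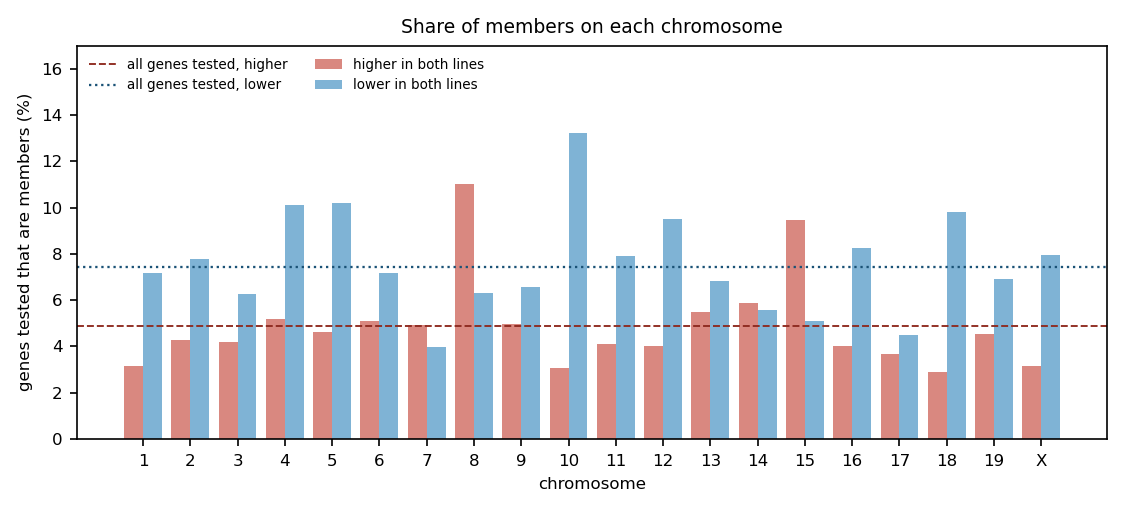
Percentage of the genes tested (y axis) that were higher (red) or lower (blue) in both lines on each chromosome (x axis), with dashed and dotted lines at the shares over all genes, 4.88% and 7.44%. Chromosome 8 stands out for members higher, at 11%, and chromosome 10 for members lower, at 13.2%.

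On chromosome 8 these genes lay together. In the 20 Mb window from 100 to 120 Mb (NCBIM37), 55 of 163 genes were higher in both lines (33.7%) and 1 lower, against 4.62% of 18334 genes elsewhere, the highest share among 139 windows with 20 or more genes. The shifts were small, with medians of 0.45 with FoxF1 and 0.30 with NFI-C2 over the 55 members higher. Of these 55, 2 exceeded 1.5-fold in both lines, Slc12a4, a potassium-chloride cotransporter (1.22 and 0.83), and Slc7a6, an amino acid transporter (0.95 and 0.59). Over all 163 genes of the window the array means were -0.01 to 0.01 with FoxF1 and 0.06 to 0.09 with NFI-C2, against -0.12 to -0.09 in wild type. Neighbours of unrelated function shared the shift, such as Tk2, mitochondrial thymidine kinase (0.67 and 0.41), Atp6v0d1, a subunit of the vacuolar proton pump (0.80 and 0.50), Terf2ip, a telomere protein (0.45 and 0.36), and Kars, lysyl-tRNA synthetase (0.42 and 0.29). The tight junction gene Marveld3 was the member in the window that was lower.

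Windows of members lower in both lines were found elsewhere. On chromosome 4 from 20 to 60 Mb, 56 of 230 genes were lower and 1 higher. There the array means were 0.02 to 0.06 with FoxF1 and -0.15 to -0.12 with NFI-C2, against 0.09 to 0.12 in wild type. From 120 Mb on chromosome 11, 16 of 59 genes were lower (27.1%), and the FoxF1 arrays had means of -0.92 to -0.91 over all 59 genes and the NFI-C2 arrays 0.06 to 0.13, against 0.12 to 0.14 in wild type. From 140 Mb on chromosome 5, 29 of 118 genes were lower (24.6%), and up to 20 Mb on chromosome 10, 16 of 69 (23.2%). Genes of a window share their neighbourhood and are not independent, and the windows named were picked for their shares.

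Sites of the families of both transfected factors were searched in the promoters of the members. A forkhead site, TGTTTAC on either strand, was found in 3.26% of 736 promoters of members higher in both lines and 2.35% of 1065 promoters of those lower, against 2.94% of all. The full nuclear factor I site, TTGGC, any 5 bases and GCCAA on either strand, was found in 1 and 2 promoters, against 5 of all 14447. Its extended part TTGGCA, which can overlap the full site, was found in 10.2% and 10.1%, against 12.8% of all.

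Among microRNA genes, Mir31 was higher in both lines, at 0.00, 0.10 and -0.04 on the FoxF1 arrays and 0.17, 0.14 and 0.04 on the NFI-C2 arrays, against -0.49, -0.17 and -0.46 on the wild type arrays, in a cluster on chromosome 4 that covers the hairpin region and does not measure the mature form by itself. The lines differed by -0.10 (95% confidence interval -0.30 to 0.11, adjusted p = 0.47). Mir697 (0.23 and 0.20) and Mir337 (0.15 and 0.12) were higher by less. The mature sequence of Mir31 from RefSeq (GRCm38.p6) is shown with its seed, bases 2 to 8, in capitals.
miR-31-5p: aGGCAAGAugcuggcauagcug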

How the data were processed

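Total RNA was hybridized by the study on Affymetrix Mouse Gene ST 1.0 arrays, 1 preparation per array. The deposited values are log2 expression, which the authors computed by RMA (version not given in the sources used here), and the median of each cluster over the 9 arrays is 0 in them. Columns of raw and corrected ANOVA p-values deposited by the authors hold their own comparisons and were not used. Arrays give no read depth, and 3 arrays per group limit the precision.

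Of 28815 clusters, 21780 carried 1 symbol, and the cluster with most probes was kept for each of 19935 genes. Genes tied at the lowest value on all 9 arrays (1438, tolerance 1e-06) were left out, so that 18497 were tested. Group means were fitted with limma (version 3.58.1, R 4.3.3) with 6 residual and 1.29 prior degrees of freedom, for FoxF1 minus NFI-C2 and for the average of both lines against wild type, at a Benjamini-Hochberg adjusted p of 0.05, and the fit was tested on simulated data. Plots used matplotlib 3.10.9 and tables used pandas 2.3.3 and NumPy 2.4.6, under Python 3.11.15. Genes named were the 15 leading members in each direction by the smaller difference, passing over predicted and RIKEN symbols, receptor families of smell and clusters placed on another chromosome than in RefSeq, then up to 4 members per direction of 44 gene lists by the same measure, the construct genes, genes at the edge of the rule, and 5 members per sign with the largest called difference between the lines. The other list members, Tlr3, microRNAs and genes of the chromosome 8 window were chosen after their values were seen. The members and lists were chosen with earlier results of these data known. Promoters were read from RefSeq tables (GRCm38.p6), which held 1801 of 2278 members, while array positions are NCBIM37. The alternatives covered normalization, the cluster per gene, ties, the variance model, the call rule, a replicate block and leaving out each array.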

Additional observations from a re-analysis of the deposited data

Results flagged for a closer look

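The extent of the shared shift differed between the lines when FoxF1 minus NFI-C2 was tested by limma with Benjamini-Hochberg adjustment over 18497 genes. Among members higher in both lines, FoxF1 was farther from wild type in 435 and NFI-C2 in 86. Among members lower in both lines, FoxF1 was farther in 628 and NFI-C2 in 142. Over both directions, FoxF1 was farther in 535 members in place of 1063 after scale normalization, which draws in the FoxF1 arrays and so is not a test. In a test against 1.5-fold FoxF1 was farther in 371 and NFI-C2 in 18 in place of 228.

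The largest such differences among members lay with genes far lower in FoxF1 cells. FoxF1 minus NFI-C2 was -6.68 for Wfdc18, -6.18 for Epcam, -5.82 for Plet1, an epithelial surface protein, -5.69 for Nkd2, an inhibitor of Wnt signaling, and -5.65 for Ehf. In the members shifted farther by NFI-C2, it was 3.91 for Ankrd1 and 1.69 for Sting1, both lower with NFI-C2, and -2.15 for Bbs2, -1.64 for Tnfrsf21, a death-domain receptor, and -1.28 for Tspan9, a tetraspanin, all higher with NFI-C2.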

How the results depend on the processing

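With 3 arrays per group on a centred scale, small differences and genes near the lowest value are the least certain. Array medians set equal, the mean of all clusters, both treatments of ties and robust variance estimation left every count within 1.5 times its main value. Of 2278 members, 2271 met the rule on the same side after quantile normalization and 2278 after scale normalization. Wild type arrays had the smallest spread, so scaling to equal spread moves them farther from the centre relative to the transfected arrays. For a member this keeps or widens the separation from wild type. The 2278 kept therefore follow from the scaling and do not test the members. Quantile normalization also equalizes the spread, so the 2271 kept there are a weak check.

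Counts that moved by more than 1.5 times were as follows. After quantile normalization 446 genes were higher and 470 lower by the fold in both lines, and after scale normalization 355 and 697, with 535 members farther from wild type in FoxF1 in place of 1063. Treating the 6 transfected arrays as 1 group gave 231 genes higher and 478 lower on average, and testing against the fold gave 199 and 552, with 371 members farther in FoxF1 and 18 farther in NFI-C2. With a call in both separate comparisons 478 genes were higher, and 477 of the 902 members were among them (52.9%). A fold of 2 left 15 higher and 103 lower. The causes were not tested, other than the stricter rules of the last 3. Counts after quantile and scale normalization are not on the deposited log2 scale, since both change the spread of the arrays.

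Leaving out 1 array at a time, the average contrast called 1927 to 2448 genes higher and 2231 to 2764 lower. Members numbered 926 to 1373 higher (the most without wild type replicate 1) and 1408 to 1787 lower. The rule over fewer arrays can only keep or add members. Those past the fold numbered 64 to 76 higher and 249 to 272 lower. Members farther from wild type numbered 1026 to 1256 in FoxF1 and 195 to 283 in NFI-C2. Same-numbered arrays deviated from their group means with correlations of -0.0079 to 0.189 over 14273 genes. The correlations were highest in replicate 1, at 0.0939 to 0.189. Whether same-numbered arrays share a step of preparation was not tested. With the replicate block 2459 genes were higher and 2805 lower on average, and 1065 and 226 members were farther in FoxF1 and NFI-C2. The 187 named genes gave 1870 values with the mean of clusters and with each array left out, and 0 changed direction. With an array left out this follows from the rule that chose them. Only the mean of clusters could have shown a change of direction, and there Irs1 moved to -0.78.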
